A study of Homo sapiens with 9 samples.

Results

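The BCL2 family was examined through 10 of its genes, chosen by name: the survival genes BCL2, BCL2L1, MCL1 and BCL2A1, the effectors BAX and BAK1, and the BH3-only genes BBC3, PMAIP1, BCL2L11 and BID. All 10 were found once each among the 58735 genes of the deposited RNA-seq table, and all 10 passed the filter on low counts. To compare the survival and the death side of the family under an ETS inhibitor, RNA was taken from KHM-5M, a thyroid cancer cell line, after 24 h with DMSO, with 0.3 μM of the inhibitor or with 1 μM of it. The inhibitor, whose code name is in the title of the plot of the members' FPKM, is a small molecule that was developed against ETS transcription factors, and DMSO is its solvent. Each of the 3 groups had 3 samples, 9 in all, from the same cell line with no other treatment, so nothing here shows whether another thyroid line would respond likewise. The labels number 3 samples per group and do not say whether these were separate cultures, while the study's methods speak of duplicates, so p-values measure only the spread between these samples.

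Proteins of the BCL2 family decide whether the outer membrane of the mitochondrion stays closed. BAX and BAK form the pores through which cytochrome c leaves, the survival proteins BCL-2, BCL-XL (from BCL2L1), MCL-1 and BFL-1 (from BCL2A1) hold them in check, and BH3-only proteins such as PUMA (BBC3), NOXA (PMAIP1), BIM (BCL2L11) and BID bind the survival proteins or activate the effectors. Much of this control acts on proteins, through binding, cleavage and degradation, and transcript levels show none of it. In cultured cells measured in bulk, fewer cells with a transcript and less of it per cell cannot be told apart.

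After 1 μM of the ETS inhibitor, the effector BAK1 was the only member called, 1.28-fold higher than in DMSO (95% interval 1.13 to 1.44), by the quasi-likelihood test of edgeR, adjusted over all genes after Benjamini and Hochberg (adjusted p = 0.00964). That is 1 of 10 members, where 17.6% of the 15617 genes tested were called (7.67% higher and 9.95% lower), so the members' share, 10%, was not above that of all genes. BCL2L11 had a fold change of like size, 1.29 (1.07 to 1.56), that missed the threshold (adjusted p = 0.0559). None of the 4 survival genes was called. After 0.3 μM, 0 of 10 members were called, and 0% of the 15762 genes tested were. At that dose 2 members, BAK1 and BCL2L11, had an unadjusted p under 0.05, as had 3.77% of all genes, and DESeq2 called no member either.

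The libraries held 16903251 to 18238884 counts, and a gene at 0 could by counting error alone have had as many as 3, which is 0.164 to 0.177 CPM, counts relative to the total of a library. Mitochondrially encoded genes took 2.84% to 3.44% of counts. Within each group, every pair of samples differed beyond counting noise, with chi-square values of 3.2 to 10.7 per degree of freedom. In DMSO the pairs with replicate 2 gave 10.7 and 6.86, and the other pair 3.2. DMSO replicate 2 also had the lowest mitochondrial share, 2.84%. Among fits with a sample left out, some calls at 1 μM stood only without DMSO replicate 2, as given below. At 0.3 μM the pairs with replicate 3 gave 9.09 and 6.65, and the other pair 4.51. Replicate 3 at 0.3 μM stood apart in the members as well. It had the highest FPKM of its group for 8 of 10 members, and DDIT3, a stress-induced transcription factor whose exons overlap those of MARS, had 822 counts there against 202 and 257 in the other samples of that dose and 256 to 273 in DMSO. The members' log2 fold changes at 0.3 μM are therefore also given without it. Of the thyroid markers, the transcription factor PAX8 was well expressed at 2742 to 3660 counts, whereas TSHR was at 0 counts in 6 of 9 samples and at most at 2 in the others. Among further thyroid markers, FOXE1 had 7 to 34 counts, NKX2-1 at most 10, TG at most 4 and SLC5A5 at most 1. The keratins KRT8 and KRT18, epithelial markers, had 22002 to 24344 and 7028 to 8131 counts. The epithelial markers EPCAM and CDH1 had 89 to 126 and at most 5. Leukocyte markers were near 0 (3 of 4 with at most 3 counts in every sample, the exception being CD14 at 8 to 37 counts).

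To see which family promoters hold the sequence read by ETS factors, RefSeq promoters (assembly GRCh38.p14, 250 bases before to 20 after the transcription start) were found for 9 of 10 members, in 14 entries. ETS factors bind around the letters GGAA, and many prefer CCGGAA. Both were searched on both strands, and every CCGGAA also contains a GGAA. The shorter core is common: 94.0% of the 35116 promoter entries hold it, and 11 of the members' 14 entries did, from 7 of 9 members. The longer core stands in 16.2% of all promoter entries and was found in 1 of the members' 14. That entry is 1 of 2 starts of BCL2L1, with the core starting 10 bases after the transcription start. The other BCL2L1 start held 0 of either core. Windows are shown for the effectors, of which BAK1 was called at 1 μM and BAX was not. The window of BCL2L11, whose change was near that of BAK1, follows. For BCL2L1, only the start that holds CCGGAA is shown. Capitals mark GGAA, or TTCC where the core lies on the other strand.

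BAK1 (chr6:33580257-33580526, minus strand): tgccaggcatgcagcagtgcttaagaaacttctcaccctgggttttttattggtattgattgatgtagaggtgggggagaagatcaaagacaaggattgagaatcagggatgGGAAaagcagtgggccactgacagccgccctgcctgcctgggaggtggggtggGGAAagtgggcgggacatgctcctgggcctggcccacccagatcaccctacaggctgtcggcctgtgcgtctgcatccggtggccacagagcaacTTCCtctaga

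BAX (chr19:48954625-48954894, plus strand): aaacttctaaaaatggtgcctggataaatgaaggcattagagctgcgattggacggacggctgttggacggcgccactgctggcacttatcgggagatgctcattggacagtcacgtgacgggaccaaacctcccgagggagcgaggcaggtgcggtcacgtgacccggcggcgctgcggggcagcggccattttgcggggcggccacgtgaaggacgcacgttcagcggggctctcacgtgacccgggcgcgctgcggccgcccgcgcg

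BCL2L11 (chr2:111120664-111120933, plus strand): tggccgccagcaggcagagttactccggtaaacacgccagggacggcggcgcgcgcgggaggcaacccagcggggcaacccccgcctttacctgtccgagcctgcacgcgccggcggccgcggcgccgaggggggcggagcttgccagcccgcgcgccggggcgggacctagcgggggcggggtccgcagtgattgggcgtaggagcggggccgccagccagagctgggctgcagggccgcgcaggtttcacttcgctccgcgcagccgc

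BCL2L1 (chr20:31723944-31724213, minus strand): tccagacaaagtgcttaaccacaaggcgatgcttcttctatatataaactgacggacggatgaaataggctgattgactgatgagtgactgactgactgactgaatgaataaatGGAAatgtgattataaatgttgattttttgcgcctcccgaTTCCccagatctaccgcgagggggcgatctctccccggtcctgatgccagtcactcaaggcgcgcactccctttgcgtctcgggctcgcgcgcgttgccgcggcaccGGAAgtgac

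The BAK1 window held 3 GGAA cores, and the BAX and BCL2L11 windows held 0. The NF-kB consensus, searched because NF-kB can drive BCL2L1 and BCL2A1, was in 0 of the members' entries and in 10.4% of all promoters. These matches describe the letters of short windows only.

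The members spanned a wide range of levels. The deposited FPKM scale divides counts by gene length and by a library size close, but not equal, to the total count. It so allows genes to be compared. On this scale, MCL1 led in DMSO with 68.0 ± 1.34 (SD, n = 3). PMAIP1 followed at 33.8 ± 2.46, BCL2L1 at 29.5 ± 1.5, BAX at 29.2 ± 0.653, BID at 21.9 ± 1.32 and BAK1 at 13.7 ± 0.298. BBC3 stood at 5.44 ± 0.45. At the low end were BCL2L11 at 1.15 ± 0.0296, BCL2 at 0.965 ± 0.0685 and BCL2A1 at 0.787 ± 0.0532 FPKM. For comparison, 12806 of the 58735 genes reached 1 FPKM in the DMSO mean. Of neighbours in this order, BCL2L1 and BAX overlapped between DMSO samples and could not be ranked, while the other 8 neighbouring pairs were separate. Over all 9 samples, PMAIP1 with BCL2L1, BCL2L11 with BCL2, and BCL2 with BCL2A1 overlapped as well.

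**Figure D1:**
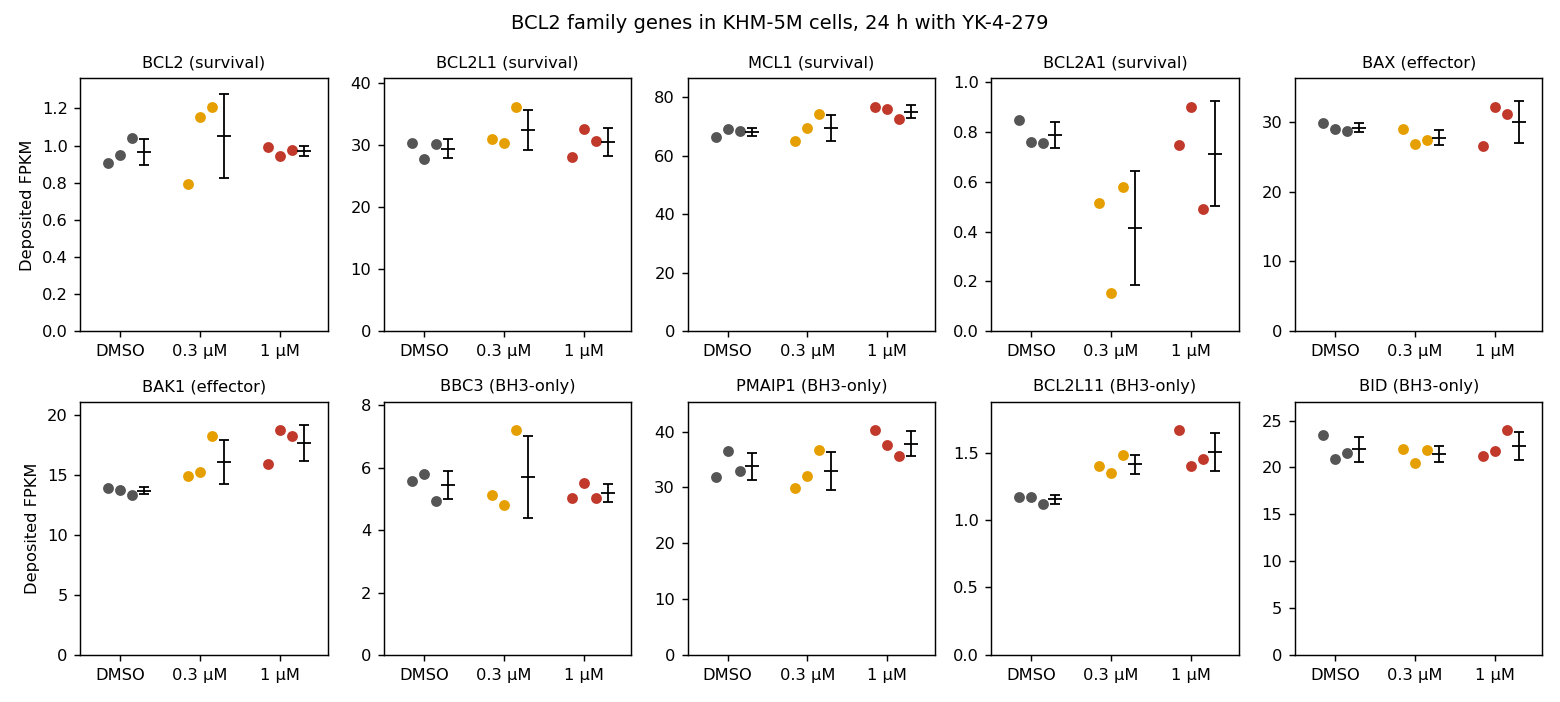
Deposited FPKM of the 10 members in each sample, by group on the horizontal axis, with 1 point per sample and the mean ± SD (n = 3) beside the points. The 3 samples at 1 μM lie above all 3 DMSO samples for BAK1, MCL1 and BCL2L11, and the groups overlap for the other members at that dose.

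MCL1 (ENSG00000143384, chr1:150574551-150579738, GRCh38) encodes a short-lived survival protein that holds BAK and the BH3-only proteins. Its FPKM was 66.5, 69.1 and 68.4 in DMSO, 65.0, 69.4 and 74.1 at 0.3 μM, and 76.8, 75.9 and 72.6 at 1 μM. All 3 samples at 1 μM lay above all DMSO samples, while those at 0.3 μM overlapped with DMSO. The fold change at 1 μM was 1.09 (95% interval 1.01 to 1.18), with an unadjusted p of 0.0296 and an edgeR adjusted p of 0.112, and thus was not called.

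BCL2L1 (ENSG00000171552, chr20:31664452-31723989) yields BCL-XL, the survival protein that guards BAX and BAK. It measured 30.4, 27.8 and 30.3 FPKM in DMSO, 31.0, 30.4 and 36.3 at 0.3 μM, and 28.1, 32.7 and 30.8 at 1 μM. The groups overlapped at both doses, with a fold of 1.02 (0.924 to 1.13) at 1 μM. An antisense gene, ABALON, shares 41.3% of its exon bases and had a mean of 29.6 counts against 1800 for BCL2L1. The counting is not stated to use strand, so reads of such pairs cannot be told apart.

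BCL2 (ENSG00000171791, chr18:63123346-63320128), the founding member, was expressed at a low level. It measured 0.908, 0.947 and 1.04 FPKM in DMSO, 0.794, 1.15 and 1.21 at 0.3 μM, and 0.994, 0.943 and 0.975 at 1 μM. The groups overlapped, and the fold at 1 μM was 0.994 (0.844 to 1.17). BCL2A1 (ENSG00000140379, chr15:79960889-79971446), whose product BFL-1 is a survival protein known from blood cells, had only 16, 15 and 14 counts in DMSO, 10, 3 and 11 at 0.3 μM, and 15, 17 and 9 at 1 μM. The 0.3 μM samples lay below all DMSO samples and the 1 μM samples did not. With so few counts the fold was 0.528 (0.272 to 1.02) at 0.3 μM and 0.898 (0.521 to 1.55) at 1 μM, and neither was called.

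BAK1 (ENSG00000030110, chr6:33572547-33580293) encodes the effector that sits on the mitochondrial membrane before any death signal. It had 533, 550 and 503 counts in DMSO, 587, 610 and 704 at 0.3 μM, and 648, 716 and 683 at 1 μM. In FPKM these were 13.9, 13.7 and 13.3 in DMSO, 14.9, 15.2 and 18.2 at 0.3 μM, and 15.9, 18.7 and 18.3 at 1 μM. Every treated sample, 6 of 6, lay above every DMSO sample. The log2 fold change was 0.35 ± 0.082 (SE) at 1 μM (edgeR adjusted p = 0.00964) and 0.23 ± 0.097 at 0.3 μM (unadjusted p = 0.0274, adjusted p = 0.995). Without replicate 3 at 0.3 μM the latter was 0.14. The call at 1 μM held in all 6 fits that left out a sample (adjusted p 0.00597 to 0.0498), but a cutoff of 1.5-fold, which 5.51% of all genes passed, would remove it.

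BAX (ENSG00000087088, chr19:48954815-48961798), the effector that moves from the cytosol to mitochondria, measured 29.9, 29.0 and 28.6 FPKM in DMSO, 29.0, 26.9 and 27.4 at 0.3 μM, and 26.5, 32.2 and 31.1 at 1 μM. The samples overlapped at both doses. The fold at 1 μM was 1.01 (0.907 to 1.13), an interval that leaves out the 1.28-fold estimate of BAK1. No test of the difference between the effectors was made.

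BCL2L11 (ENSG00000153094, chr2:111119378-111168447) encodes BIM, which binds all main survival proteins. It had 135, 141 and 127 counts in DMSO, 167, 163 and 173 at 0.3 μM, and 204, 161 and 164 at 1 μM. As for BAK1, all 6 treated samples were above all 3 DMSO samples. The log2 fold change was 0.37 ± 0.125 at 1 μM (unadjusted p = 0.0104, edgeR adjusted p = 0.0559) and 0.29 ± 0.133 at 0.3 μM (unadjusted p = 0.0423, adjusted p = 0.995). It passed the threshold when all 9 samples shared a fit (adjusted p = 0.0465), and over all alternatives its adjusted p ran from 0.0465 to 0.186. MIR4435-2HG, an antisense gene with 1407 mean counts against 159 for BCL2L11, shares 10.8% of its exon bases. Its own log2 fold change at 1 μM was -0.13 (adjusted p = 0.214), and its part in the BCL2L11 value was not tested.

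PMAIP1 (ENSG00000141682, chr18:59899948-59904306) encodes NOXA, which binds MCL-1. It had 1231, 1481 and 1257 counts in DMSO, 1197, 1301 and 1437 at 0.3 μM, and 1654, 1456 and 1350 at 1 μM. The groups overlapped. Its log2 fold change at 1 μM was 0.15 ± 0.070 (edgeR adjusted p = 0.162), and DMSO replicate 2 decided the call, since without it the value was 0.22 with an adjusted p of 0.0309. Between the doses PMAIP1 was 0.20 ± 0.079 higher on the log2 scale at 1 μM (adjusted p = 0.111). Without replicate 3 at 0.3 μM that difference was 0.28 with an adjusted p of 0.015.

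BBC3 (ENSG00000105327, chr19:47220822-47232766) encodes PUMA, which binds the survival proteins. It measured 5.58, 5.81 and 4.94 FPKM in DMSO, 5.12, 4.80 and 7.21 at 0.3 μM, and 5.03, 5.52 and 5.02 at 1 μM. Its high value at 0.3 μM was in the replicate that stood apart. The log2 fold change at that dose was 0.07, and -0.13 without that sample, while at 1 μM the fold was 0.942 (0.812 to 1.09). BID (ENSG00000015475, chr22:17734138-17774770), which caspase-8 cleaves to link death receptors to mitochondria, measured 23.4, 20.9 and 21.6 FPKM in DMSO, 22.0, 20.4 and 21.9 at 0.3 μM, and 21.2, 21.8 and 24.0 at 1 μM. All groups overlapped, and the fold at 1 μM was 1.00 (0.908 to 1.11).

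**Figure D2:**
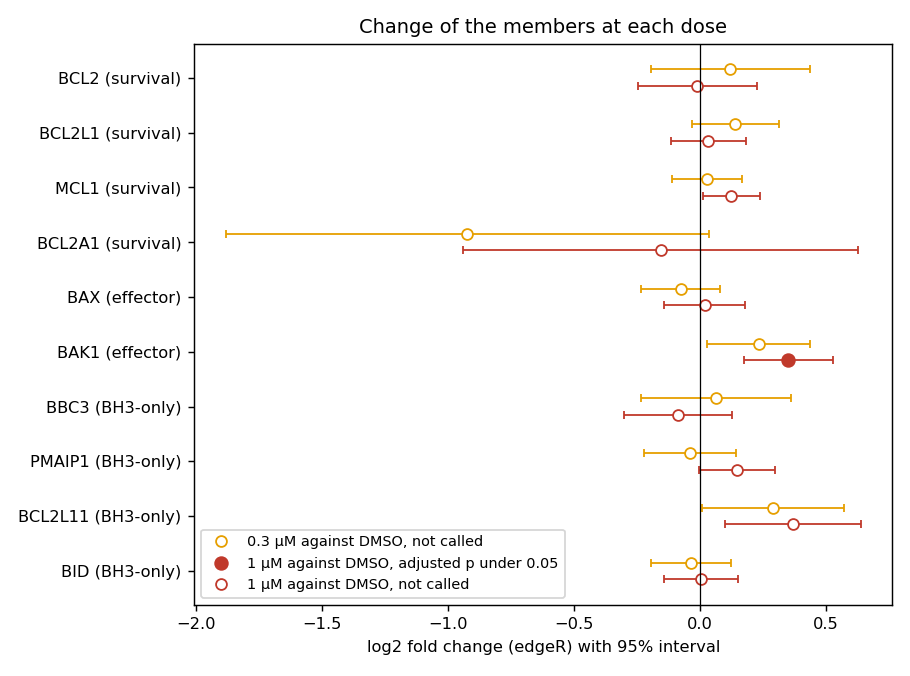
Log2 fold change of each member against DMSO by edgeR, at 0.3 μM in orange and 1 μM in red, with 95% intervals (3 samples per group). A filled symbol marks an adjusted p under 0.05, which only BAK1 at 1 μM reached, at 0.35, and the widest intervals belong to BCL2A1.

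At 1 μM, 3 members (MCL1, BAK1 and BCL2L11) had an unadjusted p under 0.05, as had 31.9% of all genes. At that dose 7 of 10 members had a log2 fold change above 0 and their median was 0.03, beside -0.01 over all genes tested. The samples at 1 μM lay wholly above DMSO for 3 members, MCL1, BAK1 and BCL2L11, and wholly below for 0, where 18.0% of all genes lay above and 18.4% below. At 0.3 μM, 2 members were wholly above DMSO (BAK1 and BCL2L11) and 1 wholly below (BCL2A1), beside 3.67% and 4.70% of all genes. Without replicate 3, the log2 fold changes at 0.3 μM were 0.013 for BCL2, 0.057 for BCL2L1, -0.017 for MCL1 and -1.23 for BCL2A1 among the survival genes. They were -0.065 for BAX, 0.138 for BAK1, -0.134 for BBC3, -0.123 for PMAIP1, 0.256 for BCL2L11 and -0.048 for BID, and none of the 10 was called. The 2 doses share the DMSO samples, so that their values are not independent. Compared directly, the doses gave 0 of 10 members called, against 12.6% of the 15583 genes tested (5.85% higher and 6.75% lower at 1 μM), and PMAIP1 alone had an unadjusted p under 0.05 (27.6% of all genes had).

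To weigh the survival against the death members, their FPKM values were summed within each sample. The ratio of the 4 survival genes to the 6 death genes was 0.933, 0.920 and 0.980 in DMSO, 0.951, 1.00 and 0.994 at 0.3 μM, and 0.965, 0.942 and 0.907 at 1 μM. The means were 0.944 ± 0.032, 0.983 ± 0.028 and 0.938 ± 0.029 (SD, n = 3), so the groups overlapped at both doses. With every member weighted equally, the log2 of this ratio against DMSO turned from 0.06 to -0.13 at 0.3 μM and went from -0.01 to -0.11 at 1 μM. In that weighting BCL2A1, at 3 to 11 counts at 0.3 μM against 14 to 16 in DMSO, counts as much as MCL1. Its part in the turn was not tested. MCL1 made up 66.1% to 72.0% of the survival sum, and the sum is therefore mostly a statement on MCL1. The survival sum itself was 99.2 ± 1.1 FPKM in DMSO, 104 ± 7.7 at 0.3 μM and 107 ± 2.8 at 1 μM, and the sum of the BH3-only genes was 62.3 ± 1.9, 61.5 ± 5.0 and 66.9 ± 1.1. At 1 μM each of these sums lay above all DMSO samples in the deposited FPKM. The survival sum was at 104.8 to 110.4 against 98.6 to 100.5, and the BH3-only sum at 66.1 to 68.1 against 60.6 to 64.4. The BH3-only separation rests on the library scaling of the deposited FPKM. With plain total counts in its place, the BH3-only sums of the groups overlapped. The effector sum, 42.8 ± 0.93 in DMSO and 47.6 ± 4.5 at 1 μM, overlapped.

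Ratios of some single pairs separated where the ratio of the sums did not. Those that did have BAK1 or BCL2L11 as the numerator. Both genes were already above all DMSO samples at both doses, so these ratios largely restate that and are no added support. BAK1 relative to BAX was 0.465, 0.472 and 0.465 in DMSO, 0.513, 0.566 and 0.665 at 0.3 μM, and 0.601, 0.580 and 0.586 at 1 μM. The treated samples were all above DMSO. BAK1 relative to BCL2L1 was 0.464 ± 0.027 in DMSO, 0.494 ± 0.012 at 0.3 μM and 0.577 ± 0.014 at 1 μM, with the 1 μM samples (0.566 to 0.593) above all others. BAK1 relative to MCL1 was 0.201 ± 0.0074, 0.231 ± 0.013 and 0.235 ± 0.024, and here the samples at 0.3 μM (0.219 to 0.245) lay above DMSO while 1 μM, with a lowest value of 0.207, overlapped with the highest DMSO value, 0.209. The pairing of BIM with MCL-1, as BCL2L11 to MCL1, was 0.0163 to 0.0176 in DMSO, 0.0194 to 0.0216 at 0.3 μM and 0.0184 to 0.0217 at 1 μM, again without overlap with DMSO. PMAIP1 to MCL1 overlapped, at 0.496 ± 0.028, 0.473 ± 0.02 and 0.504 ± 0.017, as did BAX to BCL2, at 30.4 ± 2.7, 27.5 ± 7.8 and 31.0 ± 3.9. These ratios are descriptions without a p, since the members were chosen with earlier results of these data known. Moreover, 3 samples against 3 cannot reach an exact permutation p below 0.1.

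**Figure D3:**
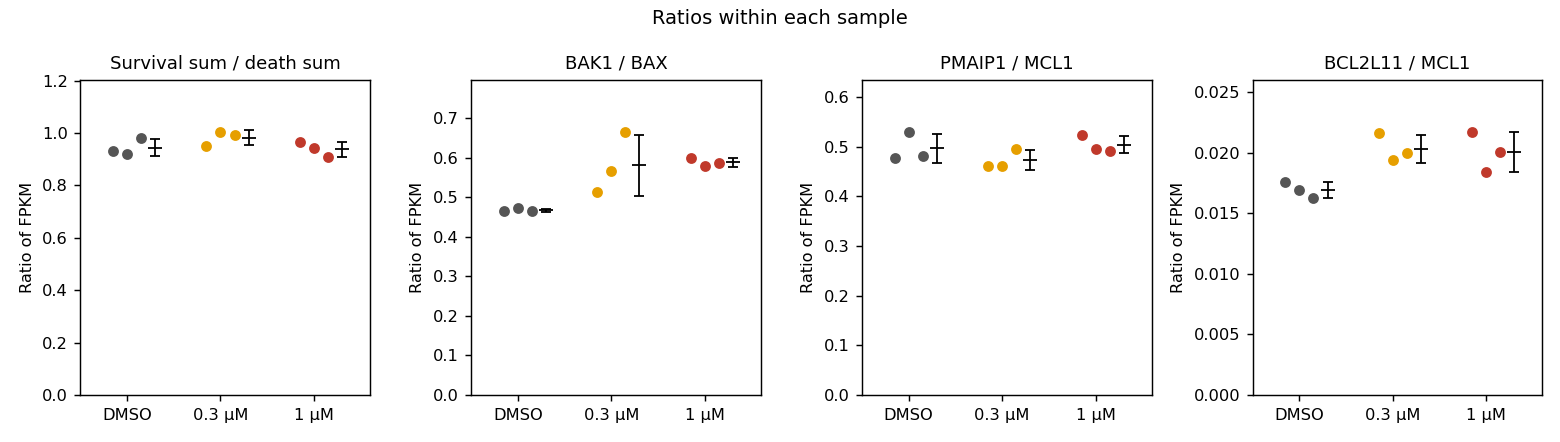
Ratios of FPKM within each sample, by group on the horizontal axis, with 1 point per sample and the mean ± SD (n = 3). The ratio of survival to death members overlaps between groups (means 0.944, 0.983 and 0.938), whereas BAK1 to BAX and BCL2L11 to MCL1 are higher in all 6 treated samples than in DMSO.

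Other genes of the family were described from a list of 13, of which 9 had enough counts to test. At 1 μM 2 of the 9 rose, namely BMF and BCL2L13, 0 fell, and the median log2 fold change was 0.081. Their share, 22.2%, and those of the lists that follow are set beside the 17.6% of all genes called at 1 μM (7.67% higher and 9.95% lower) and the median of -0.01 over all genes. BMF, a BH3-only gene, ranged from 25 to 56 counts in DMSO and from 63 to 81 at 1 μM, with a log2 fold change of 0.82 ± 0.264 (edgeR adjusted p = 0.0458). Its call held in 1 of the 6 fits with a sample left out, that without DMSO replicate 1 (adjusted p 0.0113 to 0.117 over the 6). BCL2L13, a mitochondrial relative of BCL2, ranged from 1415 to 1588 counts in DMSO and from 1656 to 1755 at 1 μM, with a log2 fold change of 0.19 ± 0.058 (adjusted p = 0.0407), and its call held only without DMSO replicate 2 (0.0155 to 0.131). BIK, a BH3-only gene, had a log2 fold change of 0.41 ± 0.160 (adjusted p = 0.0949) with 74 to 87 and 91 to 122 counts. BCL2L2, which encodes the survival protein BCL-W, was at -0.19 ± 0.096 (adjusted p = 0.202), with all 3 samples at 1 μM below DMSO. BNIP3, BNIP3L, BOK, BAD and BCL2L12 lay between -0.05 and 0.12. Exons of BCL2L2, BAD, BCL2L12 and BNIP3L overlap genes of the other strand. Of the untested genes, BCL2L10, BCL2L14 and HRK had at most 6 counts in any sample and BCL2L15 at most 9.

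Downstream of the mitochondrion, 2 of 12 genes of the apoptosome and caspase list were called at 1 μM, 1 higher and 1 lower, with a median log2 fold change of 0.09. That is 16.7%, beside 17.6% of all genes. CASP8, the initiator at death receptors, was 1.22-fold higher (1.08 to 1.37, edgeR adjusted p = 0.0244), and lost its call without DMSO replicate 3 or without 1 μM replicate 1 or 2 (0.0117 to 0.117 over the 6). CASP2 fell to 0.828 of DMSO (0.743 to 0.923, adjusted p = 0.0197) and lost its call without DMSO replicate 3 or any sample at 1 μM (0.0245 to 0.0865). CYCS, the cytochrome c gene, and APAF1, which forms the apoptosome with it, had log2 fold changes of 0.11 and -0.01 and were not called.

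Among the inhibitors of apoptosis, 2 of 6 tested genes rose (33.3%, beside 7.67% of all genes), and 0 fell. BIRC3, an NF-kB target that encodes cIAP2, ranged from 299 to 404 counts in DMSO and from 429 to 555 at 1 μM and was 1.41-fold higher (1.20 to 1.65, edgeR adjusted p = 0.00678), with its call kept in all 6 fits. XIAP, a direct caspase inhibitor, was 1.13-fold higher (1.04 to 1.24, adjusted p = 0.0414), a call that held only without DMSO replicate 2 (0.0325 to 0.162). The median log2 fold change of this list was 0.115. Of the death receptors and ligands, 3 of 9 tested rose (33.3%, beside 7.67% of all genes) and 0 fell, with a median of 0.23. All 3 are receptors of the ligand TRAIL. TNFRSF10B, the death receptor DR5, was 1.21-fold higher (1.11 to 1.32, adjusted p = 0.00524) and kept its call in all 6 fits. TNFRSF10D, a decoy receptor that does not signal death, was 1.34-fold higher (1.13 to 1.57, adjusted p = 0.0186) and lost its call without DMSO replicate 1 or 3 or 1 μM replicate 2 (0.000282 to 0.0937). TNFRSF10A, the receptor DR4, was 1.27-fold higher (1.08 to 1.51, adjusted p = 0.046), which held only without DMSO replicate 2 (0.0228 to 0.152). The genes that rose thus included a decoy as well as death receptors, and exons of TNFRSF10A and TNFRSF10B overlap genes of the other strand. TNFSF10, the gene of TRAIL itself, ranged from 5 to 15 counts in DMSO and from 11 to 25 at 1 μM and was not called (adjusted p = 0.12).

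From 16 genes known to control the members, 15 were tested, and 3 rose and 2 fell at 1 μM (33.3%, beside 17.6% of all genes), with a median log2 fold change of 0.10. In lists of 6 to 15 tested genes a few genes set such a share, and no list was tested against the others. NFKB1, RELB and RELA encode NF-kB subunits and were 1.53-fold (1.36 to 1.72, edgeR adjusted p = 0.000187), 1.52-fold (1.30 to 1.76, adjusted p = 0.00133) and 1.24-fold higher (1.12 to 1.38, adjusted p = 0.00641), each called in all 6 fits with a sample left out. BCL2L1 and BCL2A1, which NF-kB can drive, were not called, as given above. E2F1, a cell cycle factor that can induce BH3-only genes, had a fold of 0.809 (0.705 to 0.929, adjusted p = 0.0361) that held only without DMSO replicate 2 (0.000253 to 0.169), and ATF4, a stress factor upstream of PMAIP1, had 0.861 (0.797 to 0.929, adjusted p = 0.0106), lost without DMSO replicate 3 or 1 μM replicate 1 (0.00781 to 0.0616). FOXO3, which drives BCL2L11, had a fold of 1.12 (1.03 to 1.23) with an adjusted p of 0.0722. Other uncalled regulators with an unadjusted p under 0.05 went both ways. FBXW7 had a fold of 0.806 (adjusted p = 0.0521) and DDIT3 0.835 (adjusted p = 0.147). VDAC2 had 1.10 (adjusted p = 0.0886) and BTRC 1.17 (adjusted p = 0.123). At 0.3 μM 0 genes of these lists were called.

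**Figure D4:**
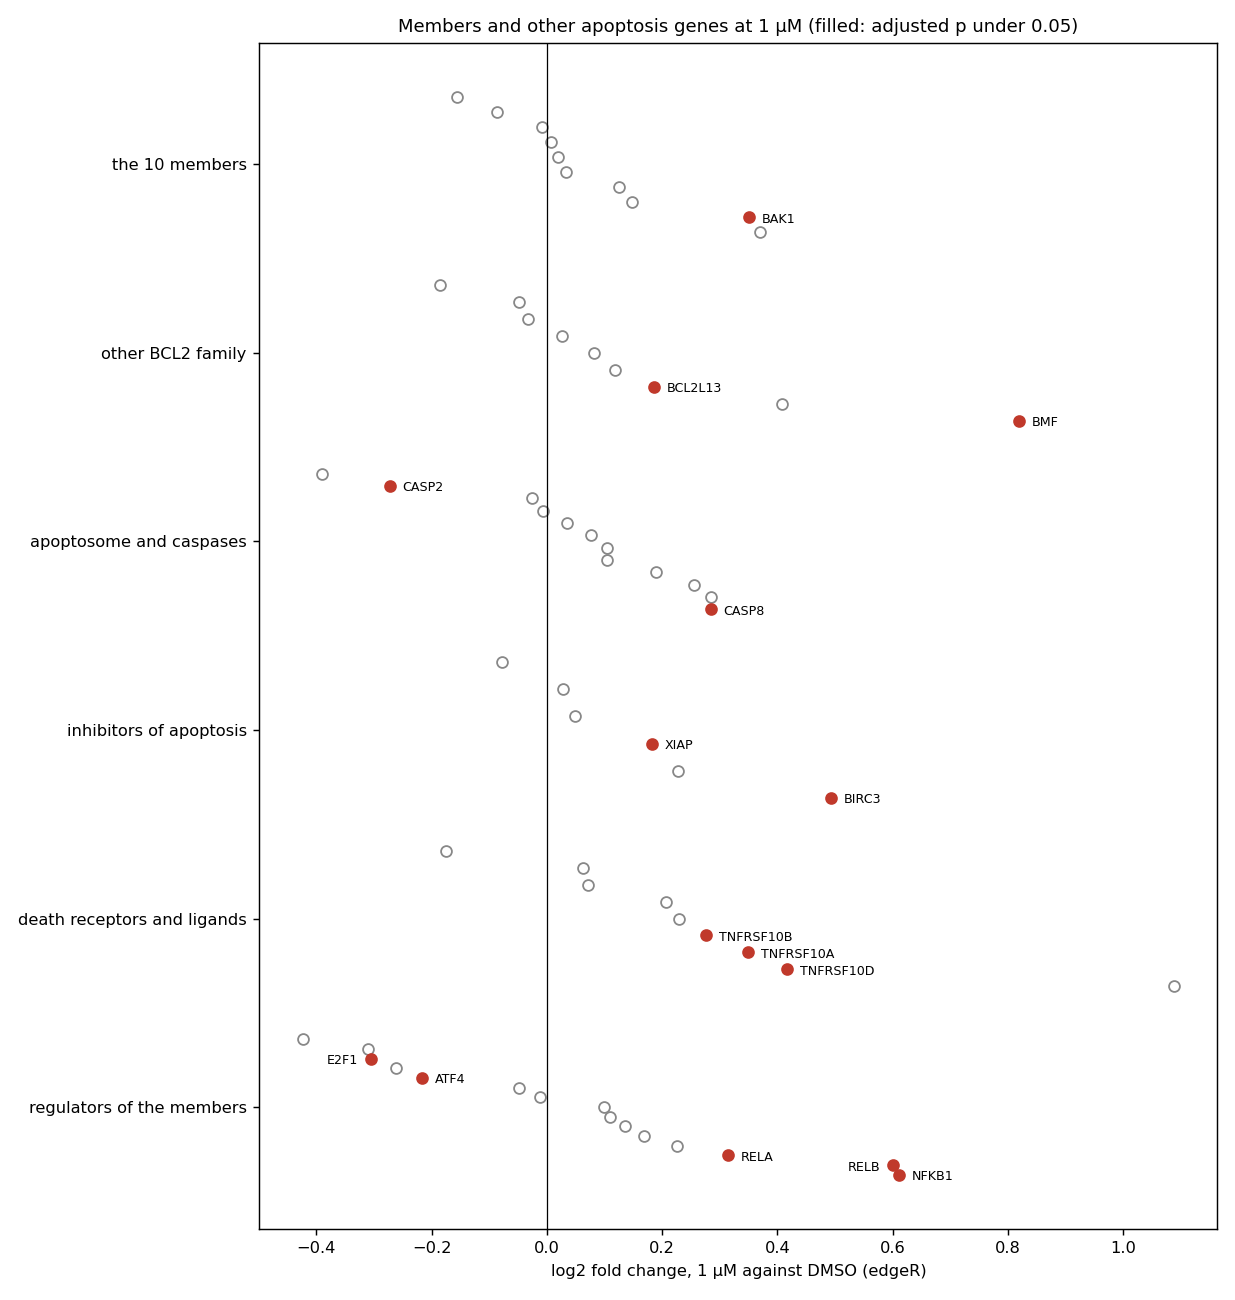
Log2 fold change at 1 μM against DMSO (edgeR, 3 samples per group) of the 10 members and of the tested genes of 5 related lists, sorted within each list, with filled and named points for an adjusted p under 0.05. BAK1 is the only filled point among the members, and BMF at 0.82 is the filled point farthest to the right.

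Some genes listed as markers of other cell types moved beside these genes at 1 μM, in samples that all came from the KHM-5M line. CD14, a monocyte marker, ranged from 8 to 21 counts in DMSO and from 30 to 37 at 1 μM (log2 fold change 1.07, edgeR adjusted p = 0.0484). Summed over the 4 leukocyte markers the level was 0.234 to 0.663 FPKM in DMSO and 0.919 to 1.13 at 1 μM, with PTPRC, CD3E and LYZ at most at 3 counts. Of 5 fibroblast markers, COL1A1 fell by 0.41 on the log2 scale (adjusted p = 0.0132) and PDGFRB fell by 0.48 (adjusted p = 0.000773), the sum being 49.1 to 66.5 FPKM in DMSO and 43.0 to 48.5 at 1 μM, while COL1A2 and DCN were near 0. LUM had a log2 fold change of 0.33 (adjusted p = 0.11) with all 3 samples at 1 μM above DMSO. The epithelial sum was 323 to 326 and 320 to 340 FPKM. The part of these shifts in the values of BAK1 and the other genes was not tested.

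The genes whose profile over the 9 samples was most like that of BAK1 were sought among 12296 protein-coding genes, by the mean absolute difference of log2 CPM relative to the DMSO mean. RAB11FIP5, which acts in endosome recycling, was closest with a mean difference of 0.054, followed by SYNGR3, a synaptic vesicle gene, with 0.055 and TICAM1, an adaptor of Toll-like receptor signalling, with 0.057. At 1 μM their log2 fold changes were 0.27 (edgeR adjusted p = 0.0136), 0.40 (0.0947) and 0.32 (0.0421), beside 0.35 for BAK1.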

How the data were processed

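RNA-seq of KHM-5M cells was analysed in 3 groups of 3 samples. The authors aligned reads to GRCh38 with Hisat2, and the counter is given as HTseq in the methods but as featureCounts 1.5.0-p3, with HISAT2 2.0.5, in the submitters' processing notes. Read counts per gene were deposited without normalization. The deposited FPKM values divide counts by gene length and by a library size that departs from the total count by a small factor per sample. For BCL2, 11.402 CPM in DMSO replicate 2 stood at 0.9466 FPKM, and 11.003 CPM in 1 μM replicate 2 at 0.9426 FPKM. The deposited group means (a normalized signal), log2 fold changes and p-values are the authors' DESeq2 comparisons and were not used.

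The counts were tested with edgeR 4.0.16 (R 4.3.3): filterByExpr with a minimum count of 10, TMM, glmQLFit and glmQLFTest on the groups compared, adjusted over all genes tested, called at an adjusted p under 0.05. Intervals (95%) came from the fitted standard errors. Figures and ratios used Python 3.11.15. Scripts were tested on simulated data. At 16903251 to 18238884 counts per sample, genes with few counts have wide intervals.

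The members and lists were chosen with earlier results of these data known. Named were all members, the other family genes, up to 5 called genes per further list by size, and the 3 genes most like each called member. TNFSF10, FOXO3, FBXW7, DDIT3, VDAC2, BTRC, CYCS, APAF1 and the marker genes were named after their values were seen. Some genes of the related lists are not reported here and are left out of the lists' counts. Alternatives were RLE factors, no filter, a replicate block, all 9 samples in a fit, DESeq2 1.42.0, other call rules and ratios, and each sample left out.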

Additional observations from a re-analysis of the deposited data

Results flagged for a closer look

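None of the 10 members was called between the doses. In 6 genes of the related lists, the response to 1 μM and the response to 0.3 μM differed when the doses were tested directly (quasi-likelihood test of edgeR, adjusted after Benjamini and Hochberg over 15583 genes). They were 1 of 9 tested other family genes, 2 of 12 apoptosome and caspase genes and 1 of 6 inhibitors of apoptosis. The rest were 2 of 15 regulators, with 0 of 9 death receptors and ligands. Of all genes tested, 12.6% were called, so these counts are not set apart from the other genes. On the log2 scale, 1 μM was above 0.3 μM by 0.51 for NFKB1 (adjusted p = 0.000298), by 0.40 for CASP8 (adjusted p = 0.0473), by 0.37 for BIRC3 (adjusted p = 0.024), by 0.27 for BNIP3, a mitophagy gene (adjusted p = 0.0411), and by 0.26 for CYCS (adjusted p = 0.0148). E2F1 had a difference of -0.33 (adjusted p = 0.0055). NFKB1 kept the call whichever sample was left out. CYCS (adjusted p = 0.092) and E2F1 (adjusted p = 0.0508) lost it without 1 μM replicate 3. BIRC3 held in 2 of 6 such fits, those without 0.3 μM replicate 3 or 1 μM replicate 2, BNIP3 held only without 0.3 μM replicate 2, and CASP8 only without 0.3 μM replicate 1. CASP8 had 369 counts in 0.3 μM replicate 3 against 598 and 581 in the other samples of that dose, and without it the difference was 0.21 (adjusted p = 0.122). Without that sample the differences were 0.50 for NFKB1, 0.42 for BIRC3, 0.20 for BNIP3 (adjusted p = 0.104), 0.22 for CYCS and -0.36 for E2F1.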

How the results depend on the processing

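BAK1 at 1 μM kept its direction and call under every alternative (log2 fold change 0.31 to 0.43, adjusted p 0.00073 to 0.0498), except that a 1.5-fold cutoff left 0 members called. Of 330 values of members under alternatives, 309 kept direction and call, 3 newly passed the threshold (BCL2L11 at 1 μM, and PMAIP1 in 2 comparisons, all given above) and 18 changed sign, all of members not called. The sign changed for BCL2 at 1 μM with no filter (0.018). With a sample left out it changed within these ranges of log2 fold change, at 0.3 μM: MCL1 -0.017 to 0.077, BBC3 -0.134 to 0.179, PMAIP1 -0.123 to 0.027 and BID -0.068 to 0.016, and at 1 μM: BCL2 -0.046 to 0.047, BCL2L1 -0.017 to 0.098, BCL2A1 -0.352 to 0.052, BAX -0.034 to 0.109 and BID -0.044 to 0.061, and for BBC3 between doses -0.251 to 0.055.

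Members called numbered 2 at 1 μM with all 9 samples in a fit, and by an unadjusted p 2 at 0.3 μM, 3 at 1 μM and 1 between doses. Leaving out a sample gave 1 to 2 at 1 μM and 0 to 1 between doses. Over all genes, calls at 0.3 μM numbered 30 with no filter, 2 by DESeq2, 594 by an unadjusted p and 0 to 4 with a sample left out. At 1 μM they numbered 861 beyond 1.5-fold, 4985 unadjusted and 1683 to 2977 with a sample left out, and between doses 507, 4301 and 948 to 1884. Equal replicate numbers did not pair samples (correlations of deviations -0.022 to 0.082). With the replicate block, calls numbered 1 at 0.3 μM, 2120 at 1 μM and 1768 between doses, and BAK1 at 1 μM had 0.35 (adjusted p = 0.0232). The log2 ratio of survival to death members against DMSO was -0.01 at 1 μM, -0.108 with members weighted equally, -0.079 without MCL1 and -0.03 to 0.018 with a sample left out. At 0.3 μM it was 0.058, with -0.128, 0.118 and 0.039 to 0.085 in turn. Depth limits BCL2A1 most, at 3 to 17 counts.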
